A study of Mus musculus with 15 samples.

Results

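The first 2 h after MYC shutdown were examined in 6 of the 15 RNA-seq libraries of a time course, taken by their labels: 3 of MYC on 0 h, from mock-treated cells, and 3 of MYC off 2 h, from cells given doxycycline for 2 h. All 6 were made from cultured mouse T-ALL cells (acute lymphoblastic leukemia of the T lineage), derived from tumors of EμSRα-tTA/tet-O-MYC mice on the FVB/N background. In this model the EμSRα element drives the tetracycline transactivator tTA in lymphoid cells, tTA switches on a human MYC transgene, and doxycycline keeps tTA off it. Both groups therefore carried both transgenes, and they differed in doxycycline and in the 2 h between mock treatment and harvest. No library of this series came from doxycycline-treated cells without the transgene, so that the loss of MYC and other effects of the drug cannot be told apart. Whether the replicates were separate cultures is not said in the labels, so the p-values reflect the spread among the libraries at hand and no more, and that spread may be technical.

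MYC is a transcription factor that pairs with MAX and binds the E-box, CACGTG, in many promoters. It is known for driving ribosome synthesis, nucleotide and amino acid metabolism and the cell cycle, and MXD and MNT proteins compete with it for MAX. How fast an mRNA level follows a change in transcription depends on the half-life of that mRNA, which was not measured here.

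The MYC transgene, listed as hMYC beside the mouse genes, was nearly gone within 2 h. Its level was 1975, 1910 and 1872 CPM (counts scaled to the same library total, with totals adjusted by the trimmed mean of M values, TMM) in the 3 MYC on libraries, and 22.9, 25.8 and 22.2 CPM in the MYC off libraries. The means were 1919 ± 52.0 (SD, n = 3) and 23.7 ± 1.91 (SD, n = 3), so that 1.23% of the starting level was left, a log2 fold change of -6.34 (standard error 0.0559, edgeR quasi-likelihood adjusted p = 8.59e-39). Per length, the authors' TPM for the transgene went from 1228, 1154 and 1143 to 14.4, 15.8 and 13.8. Mouse Myc had 0 counts in 5 of the 6 libraries and 1 count in MYC off replicate 1, Mycn had 0 in all 6, and 3 counts are worth 0.111 to 0.112 CPM at this depth. The transgene was thus the MYC family member with high counts in these cells, beside 3 to 8 counts of Mycl per library.

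Depth was even, from 26732453 to 27102318 counts per library, and TMM factors ran from 0.980 to 1.020. Of 17 T lymphoblast markers, 16 had enough counts to be tested, with a summed level of 13350 to 13410 CPM in MYC on and 11780 to 11830 CPM in MYC off libraries. Tcf7, whose values are given below, held a large part of these sums, and the median log2 fold change of the list was -0.03. Tcf7, Thy1, Cd8a, Bcl11b and Cd4 in that list were lower, Gata3, Trbc2 and Rag1 higher, and 8 were not called. Adgre1, Lyz2, S100a8, Pax5 and Ncr1, markers of macrophages, neutrophils, B cells and NK cells, had 0 counts in all 6 libraries. With these included, that held for 6 of 12 macrophage, 7 of 9 neutrophil, 5 of 10 B cell and 4 of 9 NK cell markers. The tested NK cell markers summed to 4.895 to 6.006 CPM in MYC on and 5.075 to 6.217 CPM in MYC off libraries. Those of stroma and endothelium summed to 53.35 to 56.57 and 58.51 to 62.13 CPM. The tested macrophage markers summed to 9.95 to 11.8 CPM in MYC on and 9.82 to 11.8 CPM in MYC off libraries. B cell markers summed to 73.6 to 79.3 and 95.7 to 105.4 CPM, nearly all of it Ighm, the IgM heavy chain gene, and the part of this rise in the other results was not tested. Transcripts of the mitochondrial genome took 1.64% to 1.86% of counts in MYC on libraries and 1.86%, 2.65% and 2.27% in MYC off replicates 1, 2 and 3.

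Within 2 h, 39.3% of tested genes were called in either direction at an adjusted p under 0.01, but most changes were small. Of 13316 genes with enough counts, 2794 were lower (21%) and 2433 higher (18.3%). The median fall was -0.35 and the median rise 0.36 on the log2 scale, and 1980 of the falls and 1714 of the rises were under 0.5. At least 2-fold changes were rare: 161 genes fell (1.21% of those tested) and 124 rose (0.931%), and 4-fold changes numbered 12 and 8. The median log2 fold change over all tested genes was 0.0048. In bulk RNA, fewer cells with a transcript and less of it per cell cannot be told apart. In a fit over all 15 libraries, whose shared spread is larger, 1244 genes were lower and 956 higher.

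The falls and rises differed in where they lay on the scale of expression. The genes that fell at least 2-fold had a median of 14.1 CPM at 0 h, against 23.6 CPM over all tested genes, and 93 of the 161 reached 10 CPM in MYC on cells. Those that rose at least 2-fold had a median of 0.586 CPM at 0 h, and 23 of the 124 reached 10 CPM at 2 h. Pseudogenes were 9 of the 2-fold rises (7.26%) and 1 of the 2-fold falls (0.621%), against 6.28% of all tested genes. Calls at such levels rest on few counts, and 2-fold rises numbered 75 where every library had to have 10 counts and 78 in DESeq2. The genes named below were therefore taken from those with at least 10 CPM in the higher group, or from the gene lists.

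**Figure D1:**
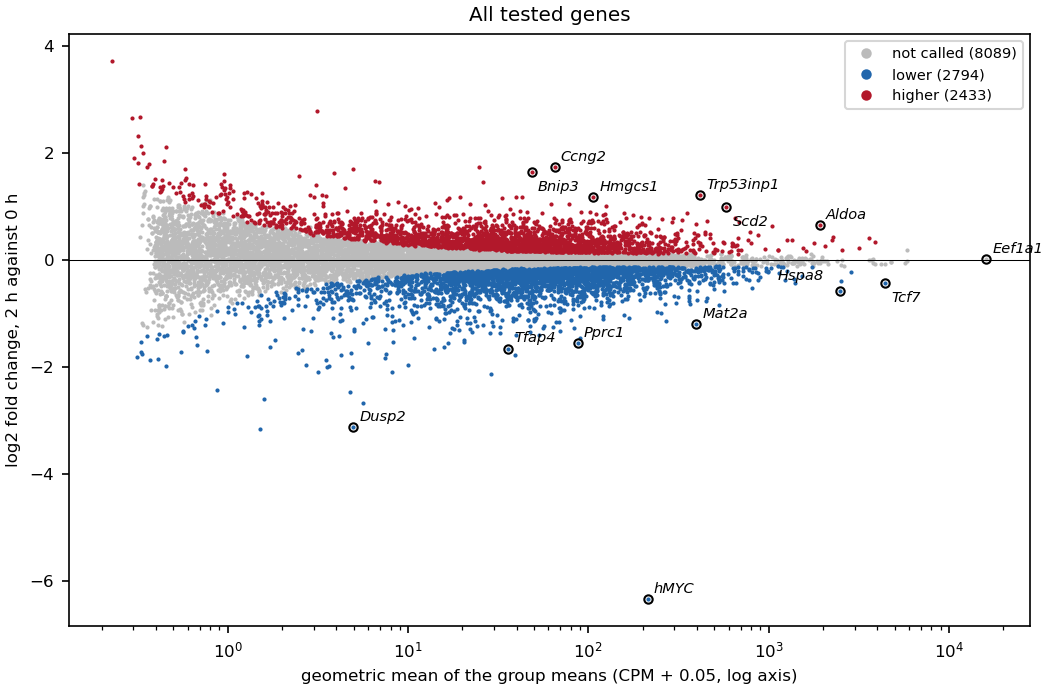
Log2 fold change at 2 h against 0 h (vertical axis) by level (horizontal log axis, CPM) for the 13316 tested genes, with 2794 called lower in blue, 2433 called higher in red and the rest in gray. The MYC transgene stands alone at -6.34, most called genes lie within 1 log2 unit of 0, and the largest rises sit at low levels on the left.

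The 15 protein-coding genes that fell most among well-expressed genes had log2 fold changes from -3.13 to -1.53. Dusp2, a phosphatase that switches off MAP kinases in the nucleus, had 15.1, 14.1 and 14.4 CPM in MYC on and 1.45, 1.86 and 1.65 CPM in MYC off libraries. It fell to 11.4% of its starting level (log2 fold change -3.13, standard error 0.12, edgeR adjusted p = 3.88e-20). Dusp7, another phosphatase of that family, went from 13.9 ± 1.06 to 3.92 ± 0.277 CPM (SD, n = 3 each), a log2 fold change of -1.83. Tfap4, which encodes the E-box-binding factor AP4, fell from 65.6, 63.5 and 62.0 CPM to 19.7, 21.2 and 19.6 CPM (log2 fold change -1.66, standard error 0.0552, edgeR adjusted p = 1.49e-21). Nr1d1, the clock repressor REV-ERBα, fell from 20.4, 20.7 and 17.9 CPM to 5.24, 4.99 and 4.93 CPM. Pprc1, a coactivator of genes for mitochondrial biogenesis, dropped from 152, 155 and 142 CPM to 49.95, 54.9 and 48.2 CPM. In each of these genes the 3 MYC off values lay below the lowest MYC on value. The choice of genes required that the groups not overlap, which held for 55.2% of all tested genes.

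The other large falls spanned signaling, metabolism and RNA modification. Angptl4, a secreted inhibitor of lipoprotein lipase, went from 57.1, 62.1 and 62.6 CPM to 13.9, 13.2 and 14.2 CPM. Pim3, a serine/threonine kinase, fell from 72.6 ± 1.17 to 21.1 ± 1.53 CPM, and Fjx1, a secreted four-jointed homolog, from 14.1 ± 0.805 to 2.18 ± 0.44 CPM (SD, n = 3 each). Trmt61a, the catalytic subunit of the methyltransferase that makes m1A in tRNA, had 24.0, 25.1 and 24.5 CPM in MYC on and 8.36, 7.63 and 7.28 CPM in MYC off cells. Hk2 and Pfkfb3, 2 regulatory steps of glycolysis, are described with that pathway. Lpar5, Klhl21, Zfp566 and Ccnb1ip1 complete the 15, with log2 fold changes from -1.76 to -1.53. Of the 15, 6 overlap a gene on the other strand (Hk2, Klhl21, Nr1d1, Pfkfb3, Pprc1 and Zfp566), as do 153 of the 386 genes chosen by the naming rule. Whether reads were counted by strand was not stated in the sources read, so that those of such pairs may not be separated.

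Among transcripts that code for no protein, the largest fall was in Map2k3os, antisense to the kinase gene Map2k3, from 10.3, 10.8 and 12.1 CPM to 1.96, 1.67 and 2.35 CPM. Mir17hg, the host transcript of the miR-17-92 cluster of oncogenic miRNAs, fell from 8.71, 8.70 and 8.67 CPM to 2.91, 2.68 and 2.24 CPM (log2 fold change -1.73, standard error 0.123, edgeR adjusted p = 1.39e-13). Particl lies antisense to the start of Mat2a, and both fell, with log2 fold changes of -1.161 and -1.20.

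The 15 largest rises were smaller, with log2 fold changes from 1.04 to 1.73. Ccng2, an atypical cyclin linked to cell cycle arrest, had 34.4, 34.6 and 37.9 CPM in MYC on and 121, 120.1 and 115 CPM in MYC off libraries (log2 fold change 1.73, standard error 0.0492, edgeR adjusted p = 2.38e-23). Bnip3, a receptor that marks mitochondria for mitophagy, rose from 28.03, 25.1 and 29.4 CPM to 77.6, 88.6 and 90.8 CPM. Its antisense neighbor Gm45507 went from 13.5 ± 1.17 to 45.3 ± 4.17 CPM (SD, n = 3 each), and reads of the pair may not be separated. Trp53inp1, a p53-induced nuclear protein with roles in autophagy, was the most abundant of the 15, at 275, 257 and 285 CPM in MYC on and 557.5, 679 and 662 CPM in MYC off libraries. Cirbp, a cold-inducible RNA-binding protein, rose from 14.6, 15.5 and 16.6 CPM to 41.1, 42.3 and 45.6 CPM. All 3 MYC off values were above all 3 MYC on values in each of these genes, which the choice of genes required. Bnip3 and Trp53inp1 were lowest, among MYC off libraries, in replicate 1.

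Msmo1 and Hmgcs1, enzymes of cholesterol synthesis, were also among the 15, as were Prr11 and Cenpl, which act in mitosis and at the centromere. Cenpl went from 52.9, 54.7 and 54.9 CPM to 110.3, 113 and 112 CPM, a doubling with almost no spread. Dyrk1b, a kinase tied to quiescence, rose from 12.6, 12.01 and 9.34 CPM to 28.7, 23.3 and 23.7 CPM. Txk, a Tec-family kinase of T cells, rose from 5.86, 4.78 and 5.48 CPM to 10.1, 12.7 and 10.3 CPM. Extl3, Tmem45a, Tmem71, Gpr155 and the linker histone gene Hist1h1c make up the rest, with log2 fold changes from 1.07 to 1.47. Of the 15, 4 overlap a gene on the other strand (Bnip3, Gpr155, Hmgcs1 and Txk).

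**Figure D2:**
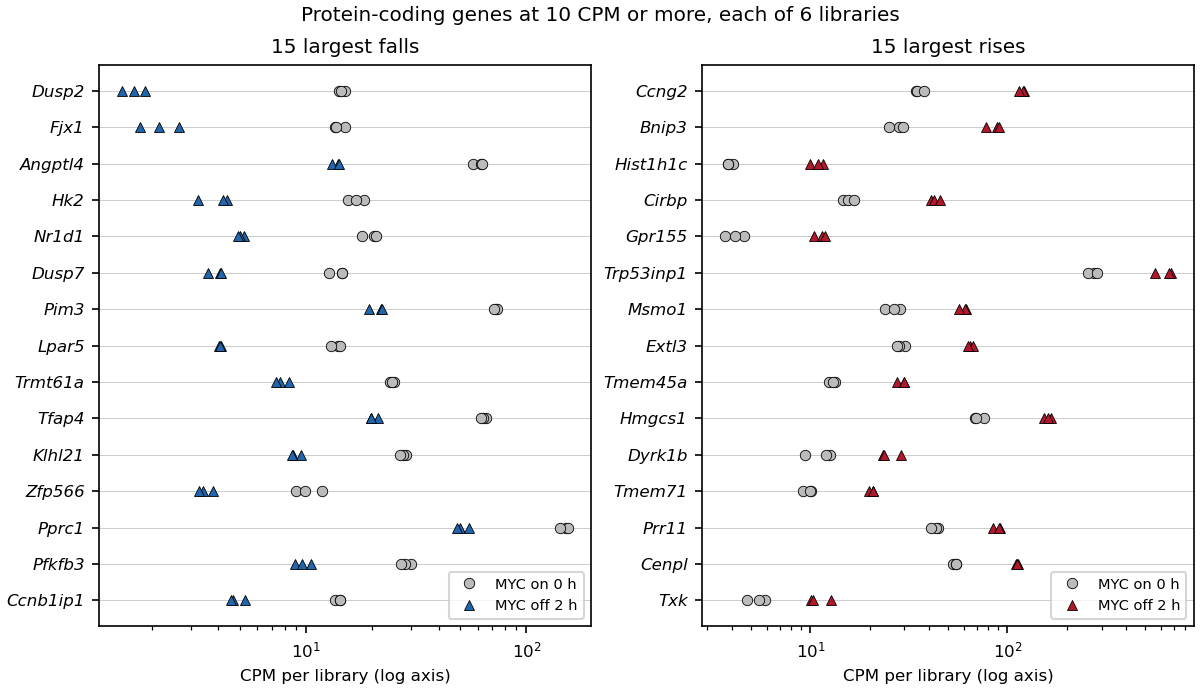
CPM in each of the 6 libraries (log axis) for the 15 protein-coding genes with the largest falls (left) and rises (right), with gray circles for MYC on 0 h and colored triangles for MYC off 2 h. The groups do not overlap in any of the 30 genes, which the choice of genes required, and Trp53inp1 rises from under 300 to over 550 CPM.

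The E-box was looked for in RefSeq promoters, from 250 bases before to 50 after the start (GRCm38.p6). Among the 15 largest falls, 12 had a promoter in the table and 3 of these held CACGTG, and among the 15 largest rises it was 2 of 11. Windows of 30 bases on each side are shown for genes from both directions and from the functions described below, 5′ to 3′ on the strand of the gene, with the E-box in capitals. They come from Dusp2 at chr2:127336020-127336085 (plus strand, E-box 109 bases before the start), Pfkfb3 at chr2:11502108-11502173 (minus strand, 53 bases before 1 of its starts), Mnt at chr11:74830771-74830836 (plus strand, 123 bases before), Nop2 at chr6:125131793-125131858 (plus strand, 60 bases before), Ciart at chr3:95882309-95882374 (minus strand, the first of 3 E-boxes, 116 bases before), Bnip3 at chr7:138909579-138909644 (minus strand, 108 bases before) and Dyrk1b at chr7:28179373-28179438 (plus strand, the first of 2, 80 bases before).
Dusp2: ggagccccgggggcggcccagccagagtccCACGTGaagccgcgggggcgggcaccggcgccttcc
Pfkfb3: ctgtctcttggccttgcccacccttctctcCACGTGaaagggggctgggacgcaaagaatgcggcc
Mnt: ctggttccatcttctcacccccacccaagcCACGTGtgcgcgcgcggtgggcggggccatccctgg
Nop2: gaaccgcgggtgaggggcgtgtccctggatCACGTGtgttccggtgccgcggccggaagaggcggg
Ciart: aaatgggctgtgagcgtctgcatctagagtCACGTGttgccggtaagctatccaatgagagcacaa
Bnip3: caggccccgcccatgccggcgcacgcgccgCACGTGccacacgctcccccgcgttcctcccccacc
Dyrk1b: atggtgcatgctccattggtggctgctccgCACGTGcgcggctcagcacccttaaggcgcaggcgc
The first 5 belong to genes that fell and the last 2 to genes that rose, so that the same 6 letters stand in promoters of both directions.

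Over all protein-coding genes, the E-box was more common in the promoters of genes that fell. At least 1 promoter held CACGTG in 12.1% of tested genes with a promoter in the table (1027 of 8481), in 17.1% of those called lower and in 9.0% of those called higher. Among 2-fold changes it was 21.3% of falls (19 of 89) and 4.62% of rises (3 of 65). For genes with a single promoter in the table the shares were 10.7% of tested genes, 19.2% of 2-fold falls and 2.0% of 2-fold rises. Of all 32851 promoters in the table, tested or not, 7.15% held the motif, which reads the same on both strands. These shares are descriptions of the sequence and say nothing of binding.

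Within the network of MYC partners, genes for its partner and for competitors moved in both directions. Max, the shared partner, fell from 176, 176 and 169 CPM to 105, 110.1 and 111 CPM (log2 fold change -0.67, standard error 0.0405, edgeR adjusted p = 2.38e-15). Mnt, a repressor that competes for MAX, fell from 41.8, 45.0 and 38.1 CPM to 18.9, 23.1 and 20.004 CPM, a log2 fold change of -1.01. Mxd1, another competitor, rose from 5.08, 4.33 and 3.94 CPM to 10.4, 9.08 and 9.19 CPM, a log2 fold change of 1.10. Of 15 tested members, 9 were lower (60%, against 21% of all tested genes) and 4 higher (26.7%, against 18.3%). Mlxip, Fbxw7, Mga, Mlx, Mxi1, Ruvbl1 and Ruvbl2 were lower by 0.15 to 0.40 on the log2 scale, and Mxd3, Mxd4 and the kinase Pim1 were higher, by 0.21, 0.14 and 0.73. Trrap and Zbtb17 did not pass the test (-0.03 and -0.08), and the calls of Mxi1 and Mxd4 were lost in 10 and 9 of the 17 alternative fits.

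The lists with the lowest medians at 2 h were those for building ribosomes. Of 64 tested genes for assembly of the large ribosomal subunit, 58 were lower (90.6%) and 0 higher, with a median log2 fold change of -0.51. Over all tested genes 21% were lower and 18.3% higher. Of 59 genes of the small subunit processome and 40S assembly, 53 were lower (89.8%) and 1 higher (median -0.49). Of 18 proteins of small nucleolar ribonucleoproteins, which guide rRNA modification, 15 were lower (83.3%) and 0 higher (median -0.43). Ppan, a factor of 60S maturation, fell from 153, 144 and 151 CPM to 54.3, 54.2 and 53.9 CPM (log2 fold change -1.46, standard error 0.0434, edgeR adjusted p = 7.26e-23). Rrp12, which helps export the subunits, fell from 100.1, 99.2 and 97.3 CPM to 44.5, 46.0 and 41.3 CPM, and the nucleolar GTPase Gnl3 from 390.3, 404 and 409 CPM to 166, 198 and 180.3 CPM. Nop2, an rRNA methyltransferase whose promoter window is shown above, went from 245 ± 6.80 to 116 ± 2.85 CPM (SD, n = 3 each). In the 60S subunit assembly list 6 members did not pass the test, among them Npm1 and Nsa2 at log2 fold changes of -0.07 and -0.05, named after their values were seen. The member of the 40S list that rose was Utp14b, from 57.3 ± 2.67 to 86.2 ± 3.18 CPM (SD, n = 3 each).

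The genes for the ribosomal proteins themselves did not follow in these first 2 h. Of 78 tested cytosolic ribosomal protein genes, 1 was lower (Rpl13a, -0.20) and 1 higher (Rps20, 0.19). That was 1.28% each, against 21% and 18.3% of all tested genes, and the median log2 fold change of these 78 was -0.02. Together they made up 102100, 108600 and 108100 CPM in MYC on and 102400, 106800 and 104400 CPM in MYC off libraries, groups that overlap. The assembly factors of the 60S subunit summed to 18320 to 18830 CPM and then to 14420 to 14850 CPM, and those of the 40S subunit to 7378 to 7438 CPM and then to 5244 to 5330 CPM, with no overlap. The sign of the ribosomal protein median turned to plus with library totals or upper-quartile factors, at 0.02, and the count of members lower ran from 0 to 10 over the alternatives. Rps20 lost its call in 4 of these fits and Rpl13a in 2, and ribosomal protein genes share sequence with many processed copies among which reads may be split.

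Polymerases that transcribe ribosomal and transfer RNA moved unevenly. For RNA polymerase I and its factors, 15 of 20 tested genes were lower and 1 higher (median -0.39). Polr1b, its second largest subunit, fell from 129.8, 131 and 129 CPM to 50.9, 56.7 and 53.9 CPM (log2 fold change -1.27, standard error 0.0456, edgeR adjusted p = 9.53e-21). Cd3eap, another subunit despite its name, fell from 55.6 ± 1.94 to 26.04 ± 0.327 CPM, and Ubtf, which binds ribosomal DNA, from 311 ± 11.8 to 199.7 ± 7.59 CPM (SD, n = 3 each). For RNA polymerase III the count was 10 of 23 lower (43.5%, against 21% of all tested genes) and 4 higher (17.4%, against 18.3%), with a median of -0.08. Its subunit gene Polr3d fell from 28.03, 28.9 and 28.3 CPM to 12.9, 12.5 and 11.1 CPM, while Maf1, the repressor of this polymerase, rose from 87.3, 90.1 and 86.8 CPM to 113, 109 and 105 CPM. Among subunit paralogs, Polr3g had a log2 fold change of -0.62 and Polr3gl one of 0.30.

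Genes for modifying and transporting RNA and for making protein were lower in most cases. Of 43 tested genes for tRNA and rRNA modification, 29 were lower and 1 higher (median -0.42), led by Trmt61a and Nop2. Of 15 snoRNA host transcripts, 10 were lower and 0 higher (median -0.33), Snhg17 among them at -1.29, while Gas5, Snhg1, Snhg8 and Zfas1 had values from -0.07 to 0.02 and did not pass. Translation factors counted 34 of 51 lower and 1 higher (median -0.22), with Eif1a at -1.03 and the higher member Eif1 at 0.33. Aminoacyl-tRNA synthetases counted 14 of 22 lower and 2 higher, the latter Aars and Cars. Nuclear transport genes counted 31 of 47 lower and 3 higher, and arginine methyltransferases and their partners 9 of 12 lower, with Btg1 and Btg2, cofactors that are also antiproliferative, the 2 higher. Btg2 lost its call in 4 of the 17 alternative fits.

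Protein folding showed the same direction. Of 28 CCT and HSP chaperone genes, 20 were lower (71.4%, against 21% of all tested genes) and 2 higher (7.14%, against 18.3%), with a median of -0.23. Of 33 genes for mitochondrial import and chaperones, 24 were lower (72.7%) and 0 higher (median -0.28). Hspa8, the constitutive HSP70, lost the second most CPM of all mouse genes, from 2923, 3106 and 3150 CPM to 2076, 2066 and 2016 CPM. The higher members were Cirbp, described above, and Dnajb1, at 0.42. Mitochondrial ribosome genes counted 40 of 77 lower (51.9%) and 1 higher (median -0.16). But of 76 nuclear genes of the respiratory chain 5 were lower (6.58%) and 1 higher. Their median was -0.03, and 0.0050 and 0.0080 with library totals and upper-quartile factors. Without MYC on replicate 1, 11 of these 76 were lower. Timm10, an import chaperone, fell from 34.0, 38.0 and 33.1 CPM to 15.1, 16.3 and 16.3 CPM.

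Transcripts of the mitochondrial genome varied widely among the MYC off libraries. Of 11 tested protein genes, 6 were higher (54.5%, against 18.3% of all tested genes) and 0 lower, with a median of 0.33. But 3 were higher without MYC off replicate 2, and 0 in DESeq2 and in both fits that add later time points. Their summed level was 18020, 17720 and 15930 CPM in MYC on and 17380, 25150 and 21270 CPM in MYC off libraries, so that the groups overlap. For mt-Cytb the values were 3192, 3282 and 2853 CPM in MYC on and 3395, 4953 and 4095 CPM in MYC off libraries, so that replicate 1 barely exceeded the MYC on range. The 16S rRNA gene mt-Rnr2 had 261, 260.4 and 261 CPM and then 378, 544 and 518 CPM. The part of the mitochondrial share of each library in these values was not tested. The largest count of members higher over the alternatives was 9.

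Genes of the pathways that supply methyl groups, polyamines and amino acids were mostly lower. Mat2a, which makes S-adenosylmethionine, fell from 575, 596 and 630 CPM to 247, 273 and 261 CPM (log2 fold change -1.20, standard error 0.0424, edgeR adjusted p = 6.25e-21). Srm, spermidine synthase, went from 337, 335 and 335 CPM to 182, 175 and 158 CPM, and Odc1, the first enzyme of polyamine synthesis, from 395, 411 and 413 CPM to 231, 234 and 231 CPM. Of 21 genes for polyamines, 12 were lower (57.1%, against 21% of all tested genes). The 4 higher were 19.0%, near the 18.3% of all tested genes. They were Smox and Paox, which oxidize polyamines, Oaz2, an antizyme that restrains Odc1 protein, and Apip. The call of Apip was lost in 8 of the 17 alternative fits. In the list for serine, 1-carbon and methyl metabolism, 14 of 25 were lower (56.0%) and 4 higher (16.0%), with a median of -0.15. For amino acid transport and catabolism it was 13 of 23 lower (56.5%) and 3 higher (13.0%). Its median was -0.19, with the transporters Slc7a5 and Slc7a1 at -0.62 and -0.61.

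Genes for nucleotide synthesis were more often lower than higher. Of 37 genes for purines and pyrimidines, 20 were lower (54.1%, against 21% of all tested genes) and 4 higher (10.8%, against 18.3%), with a median of -0.26. The 4 higher genes, Rrm1, Rrm2, Dck and Tk1, are known for making or salvaging deoxynucleotides, a grouping made after their values were seen. Rrm2, the regulated subunit of ribonucleotide reductase, rose from 477, 497 and 516 CPM to 854.5, 874 and 821 CPM (log2 fold change 0.77, standard error 0.04, edgeR adjusted p = 6e-17). Dck, deoxycytidine kinase, rose from 252, 263 and 253 CPM to 419, 431 and 439 CPM. Ctps, Gart, Dhodh and Ppat, enzymes of the de novo routes, led the falls at -0.60 to -0.53.

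**Figure D3:**
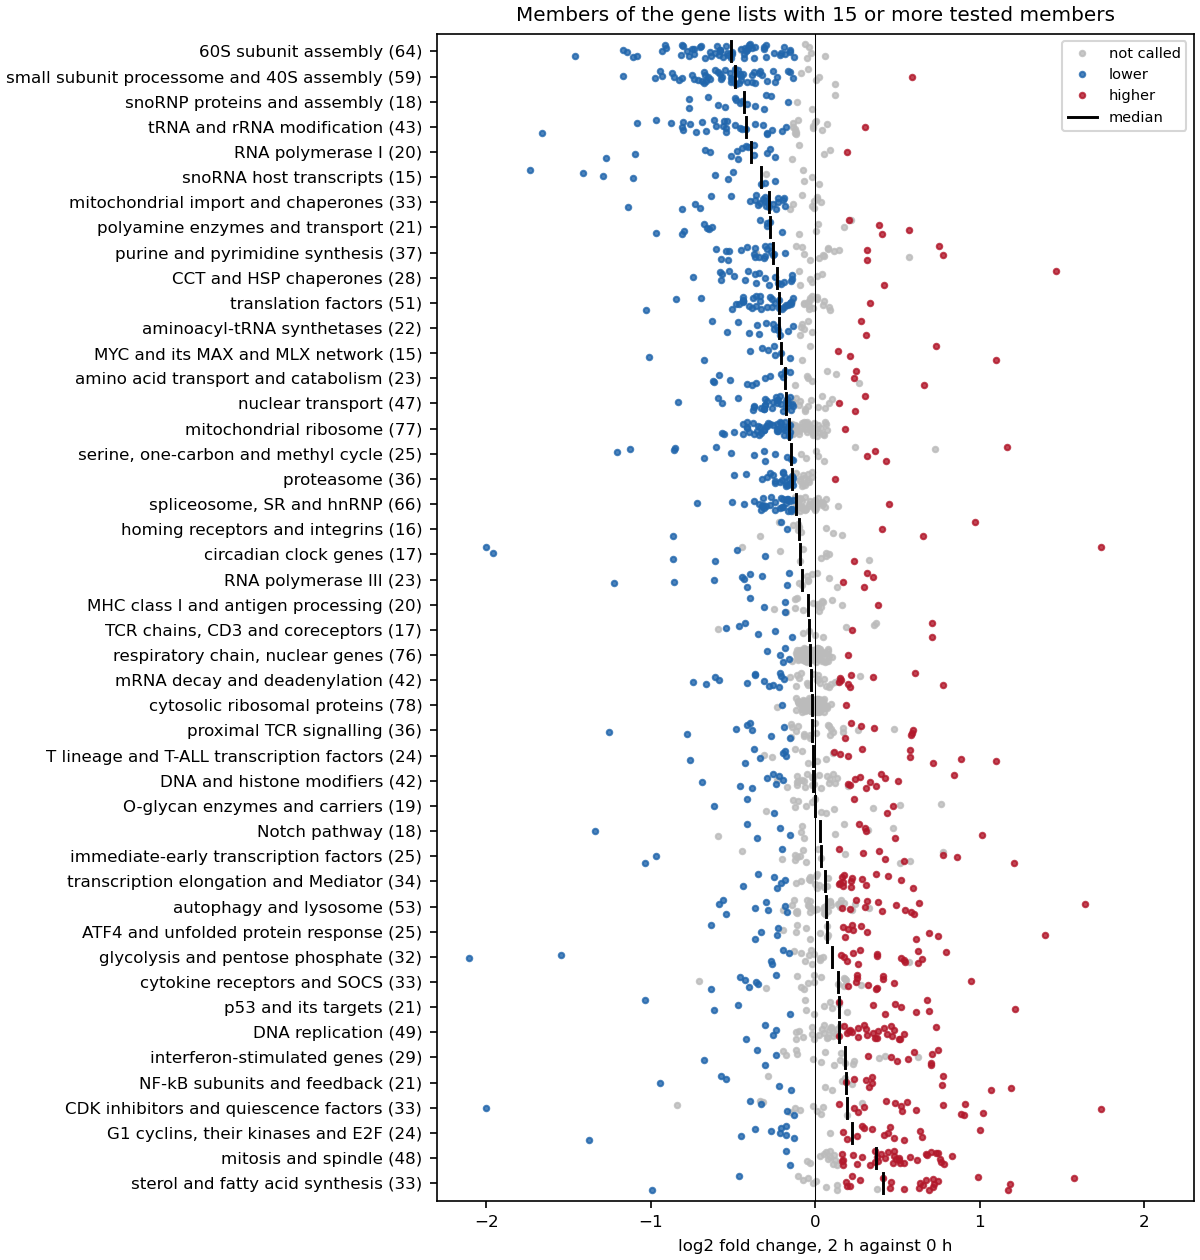
Log2 fold change at 2 h against 0 h of each tested member (points) of the gene lists with 15 or more tested members, ordered by median (black bar), with the number of members in parentheses, blue for called lower, red for called higher and gray for not called. Ribosome assembly lists sit at the top with medians near -0.50, ribosomal proteins cluster at 0, and mitosis and sterol synthesis sit at the bottom with medians of 0.37 and 0.41.

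Glycolysis moved in opposite directions within the pathway. Hk2, the hexokinase that traps glucose, fell from 18.3, 15.5 and 16.8 CPM to 3.24, 4.35 and 4.19 CPM (log2 fold change -2.10, standard error 0.106, edgeR adjusted p = 2.93e-17). Pfkfb3, which makes the activator of phosphofructokinase, fell from 29.8, 28.1 and 27.1 CPM to 8.94, 10.5 and 9.60 CPM. Most enzymes of the trunk were higher: Aldoa, aldolase, went from 1579, 1512 and 1502 CPM to 2394, 2373 and 2444 CPM, and Gpi1, glucose-6-phosphate isomerase, from 846, 837 and 847 CPM to 1289, 1289 and 1324 CPM. Slc16a3, a lactate exporter, rose from 25.5, 21.9 and 24.3 CPM to 37.7, 43.1 and 43.9 CPM, and Pdk1, which holds pyruvate back from the mitochondrion, from 149.9 ± 5.72 to 231 ± 9.70 CPM (SD, n = 3 each). In all, 15 of 32 tested members were higher (46.9%, against 18.3% of all tested genes) and 6 lower (18.8%, against 21%), and the median was 0.10. The transporters Slc2a1, Slc2a3 and Slc16a1 and the pentose phosphate gene Taldo1 were the other members lower, at -0.27 to -0.16. Summed over the members the list went from 16800 to 16940 CPM to between 20120 and 20720 CPM, a sum set by the abundant trunk enzymes.

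Genes for making lipids were mostly higher. Of 33 genes for sterols and fatty acids, 22 were higher (66.7%, against 18.3% of all tested genes) and 2 lower (6.06%, against 21%), with a median of 0.41. The 2 lower ones were Fasn, fatty acid synthase, from 386, 367 and 325 CPM to 186, 179 and 176 CPM (log2 fold change -0.99, standard error 0.0466, edgeR adjusted p = 5.88e-18), and Acaca, the carboxylase before it, at -0.46. Hmgcs1, the HMG-CoA synthase of the mevalonate pathway, rose from 68.4, 76.1 and 68.9 CPM to 166, 154 and 160.3 CPM, and Msmo1, a sterol demethylase, from 23.9, 28.5 and 26.5 CPM to 61.3, 60.7 and 57.0 CPM. Scd2, a desaturase of fatty acids, rose from 434, 409 and 398 CPM to 788, 833 and 839.9 CPM. Its paralog Scd1 rose from 1.397 to 4.17 CPM on average.

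The cell cycle genes did not fall as a group at 2 h, and those of mitosis were mostly higher. Of 48 genes for mitosis and the spindle, 34 were higher (70.8%, against 18.3% of all tested genes) and 2 lower (4.17%, against 21%), with a median of 0.37. Of 49 genes for DNA replication 24 were higher (49.0%) and 4 lower (8.16%), with a median of 0.15. Prc1, which bundles the central spindle, rose from 138, 129 and 129.9 CPM to 235, 240.1 and 232 CPM (log2 fold change 0.83, standard error 0.0399, edgeR adjusted p = 9.45e-18). Aurka, a mitotic kinase, rose from 197, 198 and 197 CPM to 345, 320.0 and 343 CPM, and Clspn, of the replication checkpoint, from 93.7 ± 2.40 to 156 ± 8.94 CPM (SD, n = 3 each). Orc2, Pold2, Orc4 and Pola2 were the replication genes lower, at -0.42 to -0.24, and Espl1 and Ube2c the mitotic ones, at -0.18 and -0.15. Espl1 lost its call in 3 and Ube2c in 5 of the 17 alternative fits, and without MYC off replicate 2 the mitotic genes lower numbered 0.

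At the entry to the cycle, the D-type cyclin of this list that fell was Ccnd2, from 27.6, 28.8 and 26.4 CPM to 9.49, 10.4 and 12.1 CPM (log2 fold change -1.37, standard error 0.078, edgeR adjusted p = 6.65e-16). Ccnd1, another D-type cyclin, was higher, at 0.42 to 0.63 over the alternative fits, and lost its call in 7 of these 17. E2f8, an E2F repressor, rose from 90.6, 89.9 and 85.3 CPM to 186, 178 and 169 CPM, and Ccne2, which drives entry to S phase, from 138, 159.6 and 162 CPM to 232, 246 and 244 CPM. Of the 24 genes in this list 14 were higher (58.3%) and 9 lower (37.5%), against 18.3% and 21% of all tested genes. With 1 library left out 6 to 8 were lower, and in the 15-library fit 2. Among CDK inhibitors, Cdkn1b, which encodes p27, went from 67.5, 64.0 and 67.0 CPM to 127, 123 and 121 CPM, and Cdkn2d, which encodes p19, from 18.4, 18.3 and 19.7 CPM to 39.9, 36.1 and 38.3 CPM. Cdkn2a, another inhibitor, was lower, at -0.13, a call lost in 12 of the 17 alternative fits. Of 33 CDK inhibitors and quiescence factors, 16 were higher (48.5%) and 5 lower. The count lower was 3 without MYC on replicate 1 or 2 or MYC off replicate 2, and 2 without MYC off replicate 3. Sik1, a kinase, was the largest fall there, from 9.90, 9.23 and 9.83 CPM to 1.75, 2.68 and 2.80 CPM.

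Among circadian clock genes, repressors of the clock and its outputs made up most of the falls. Ciart, a repressor of CLOCK and BMAL1 with 3 E-boxes in its promoter, fell from 7.45, 6.40 and 7.09 CPM to 1.42, 2.20 and 1.62 CPM (log2 fold change -2.001, standard error 0.149, edgeR adjusted p = 4.53e-13). With Nr1d1, Per1, Per2, Dbp and Cry2 it made up the 6 of 17 members that were lower. That was 35.3%, against 21% of all tested genes, and 11.8% were higher, against 18.3%. Arntl, which encodes BMAL1, and the low-expressed Npas2 were the 2 higher, at 0.23 and 1.74, and Npas2 lost its call in 2 alternative fits, Per2 in 3 and Per1 in 1. Clock, Cry1 and Nr1d2 did not pass the test, at -0.09, 0.04 and 0.07.

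**Figure D4:**
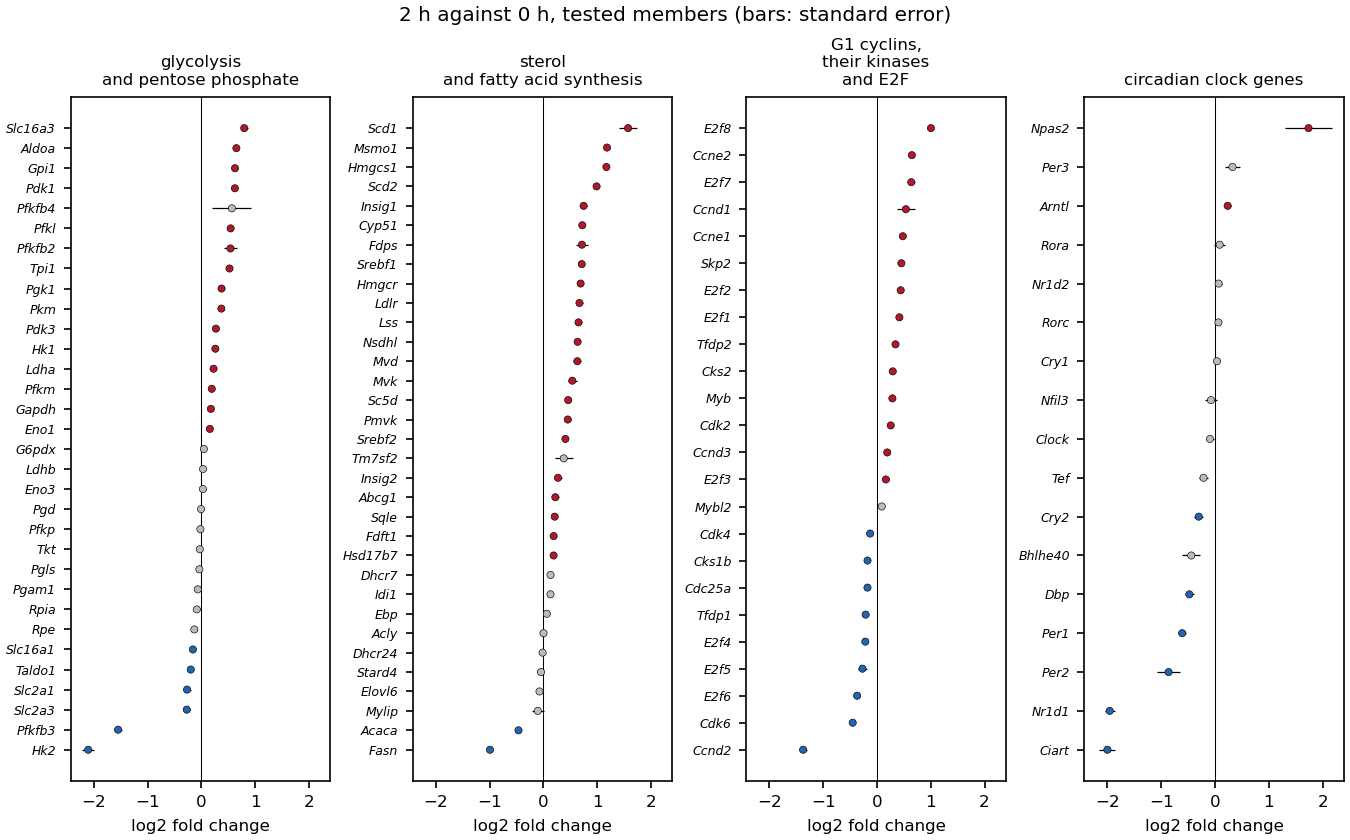
Log2 fold change at 2 h against 0 h with its standard error for each tested member of 4 gene lists, in blue for called lower, red for called higher and gray for not called. In glycolysis Hk2 and Pfkfb3 stand apart at -2.10 and -1.55 below 15 higher members, in lipid synthesis Fasn and Acaca are the only members called lower, and Ccnd2 and the pair Nr1d1 and Ciart lie farthest left in the other 2 lists.

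Genes of T cell identity changed singly, not as a list. Tcf7, a T lineage transcription factor and among the most abundant transcripts here, lost more CPM than any other mouse gene, from 5216, 5144 and 5134 CPM to 3881, 3808 and 3821 CPM (log2 fold change -0.43, standard error 0.0407, edgeR adjusted p = 1.28e-10). Its relative Lef1 fell from 116, 113 and 108 CPM to 66.7, 62.7 and 69.6 CPM. Gata3 rose from 66.3, 63.9 and 58.5 CPM to 104, 102 and 103 CPM, and the inhibitors of DNA binding Id1, Id2 and Id3 were higher by 1.10, 0.88 and 0.58. The counts were 9 higher (37.5%) and 7 lower (29.2%) of 24 (median -0.02), against 18.3% and 21% of all tested genes. Among receptor genes, Trac, the T cell receptor α constant region, rose from 102, 93.2 and 104 CPM to 162, 169 and 158 CPM, and the costimulator Cd28 from 229 ± 3.33 to 374 ± 6.31 CPM (SD, n = 3 each). Cd8a, Cd8b1, Thy1 and Cd4 were lower, at -0.35, -0.24, -0.43 and -0.14, and Cd4 lost its call in 7 of the 17 alternative fits. The medians of these T cell lists turned positive with library totals or upper-quartile factors.

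Signaling genes showed large single changes within lists that had members called in both directions. Of NF-κB genes 47.6% were higher and 23.8% lower, and of p53 targets 42.9% and 19.0%, against 18.3% and 21% of all tested genes. Immediate-early factors were also more often higher than lower, and the Notch list was evenly split. Mfng, a glycosyltransferase that modifies Notch, fell from 110.4, 109 and 111 CPM to 46.3, 43.3 and 41.2 CPM, in a Notch list with 5 of 18 higher and 5 lower, or 2 lower without MYC off replicate 3. Junb, an AP-1 subunit, fell from 45.3, 43.2 and 44.5 CPM to 21.7, 21.8 and 21.4 CPM, among immediate-early factors of which 8 of 25 were higher and 3 lower. Of 21 NF-κB genes 10 were higher and 5 lower, or 3 lower without MYC on replicate 2 or MYC off replicate 2 or 3. Relb and Rel, 2 of its subunits, rose from 2.28 ± 0.214 to 5.22 ± 0.579 CPM and from 2.296 ± 0.159 to 4.81 ± 0.624 CPM (SD, n = 3 each), while Nfkbid was lower, at -0.94. Among proximal T cell receptor signaling genes, 7 of 36 were higher (19.4%) and 9 lower, shares near the 18.3% and 21% of all tested genes. Within that list Ubash3a, a phosphatase that restrains the receptor, fell from 101, 98.1 and 98.2 CPM to 42.4, 39.4 and 42.5 CPM. In the list of p53 targets, 9 of 21 were higher and 4 lower, and Aen, a nuclease gene, fell from 59.3 ± 2.14 to 29.0 ± 2.24 CPM (SD, n = 3 each) while Trp53inp1 rose. Among 10 sialyltransferase genes, 4 were lower and 2 higher (St6gal1 at 0.48 and St8sia4 at 0.28), and St6galnac4 fell most, from 76.6, 75.8 and 69.9 CPM to 32.5, 34.8 and 32.9 CPM.

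The remaining lists had members called in both directions. Among 13 MAP kinase phosphatases and Sprouty-related genes, 5 were higher (38.5%) and 2 lower (15.4%), against 18.3% and 21% of all tested genes. Dusp2 and Dusp7 fell while Dusp1 rose from 4.93, 5.27 and 4.28 CPM to 8.51, 8.67 and 10.2 CPM. Of 53 autophagy and lysosome genes 13 were higher (24.5%) and 8 lower (15.1%), near the 18.3% and 21% of all tested genes, with Bnip3 and its relative Bnip3l, at 111 ± 6.33 and 172 ± 11.3 CPM (SD, n = 3 each), rising most among the well-expressed. Of 25 genes of ATF4 and the unfolded protein response 11 were higher (44%, against 18.3% of all tested genes). The 5 lower were a share near the 21% of all tested genes. Chac1, Trib3 and Ddit3 were higher in every alternative fit, at 1.10 to 1.57, 0.69 to 0.83 and 0.56 to 0.69. Atf4 itself was lower, at -0.39 to -0.33. Hyou1, a chaperone of the endoplasmic reticulum, fell from 156, 155 and 155 CPM to 104, 99.1 and 97.1 CPM.

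Genes for transcription elongation and Mediator counted 15 of 34 higher (44.1%, against 18.3% of all tested genes) and 6 lower (17.6%, against 21%). Hexim1, an inhibitor of the elongation factor P-TEFb, rose from 47.4, 45.3 and 42.6 CPM to 71.8, 67.5 and 65.1 CPM. Without MYC on replicate 2, 9 of these 34 were higher, and in the 15-library fit 3 were higher and 1 lower. Of 42 genes for mRNA decay, 9 were higher (21.4%) and 14 lower (33.3%). The exosome subunit gene Exosc4 fell from 48.1 ± 1.90 to 28.7 ± 0.419 CPM, and the deadenylase gene Cnot6l rose from 224 ± 5.83 to 384 ± 30.3 CPM (SD, n = 3 each). Of 42 DNA and histone modifiers, 11 were higher (26.2%) and 8 lower (19.0%). The deacetylase gene Hdac5 was at 21.6 ± 0.93 and 38.8 ± 0.866 CPM and the demethylase gene Kdm6b at 64.2 ± 5.62 and 39.8 ± 0.397 CPM (SD, n = 3 each). In the BCL2 family, 2 of 11 tested genes were higher (18.2%) and 3 lower (27.3%), near the shares of all tested genes. The proapoptotic Bid fell from 85.2, 86.5 and 85.9 CPM to 51.6, 47.7 and 44.9 CPM. Bcl2l1, which protects from apoptosis, rose from 142, 145 and 134 CPM to 201, 199 and 191 CPM.

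Of interferon-stimulated genes 9 of 29 were higher, a larger share than the 18.3% of all tested genes. The 4 lower were 13.8%, against 21% of all tested genes. Cytokine receptors and SOCS genes counted 11 of 33 higher (33.3%) and 7 lower (21.2%), the latter near the share of all tested genes. O-glycan enzymes and carriers counted 3 of 19 higher and 3 lower (15.8% each). Homing receptors and integrins counted 3 of 16 higher and 3 lower (18.8% each). Both lists were near the shares of all tested genes. MHC class I genes counted 1 of 20 higher, a smaller share than that of all tested genes, and 4 lower, a share near it. Ccr4, a chemokine receptor, fell from 27.6 ± 0.703 to 15.2 ± 1.45 CPM (SD, n = 3 each). Txnip, a glucose-sensing arrestin, rose from 58.9, 56.0 and 57.3 CPM to 86.5, 90.5 and 88.3 CPM, while its relative Arrdc2 fell from 12.6 ± 0.572 to 7.32 ± 0.321 CPM (SD, n = 3 each).

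The larger list counts were found again, reduced, in the 15-library fit, in which 8.59% of tested genes were lower and 6.6% higher. There the members lower were 45 of 64 for the 60S list, 43 of 59 for the 40S list, 24 of 43 for RNA modification, 9 of 18 for snoRNP proteins and 8 of 20 for RNA polymerase I. Lists with small folds lost more: 8 of 77 mitochondrial ribosome genes, 10 of 66 spliceosome genes and 2 of 36 proteasome genes were lower, where the 6 libraries alone gave 40, 30 and 22. Translation factors lower went from 34 to 15 of 51, and nuclear transport genes from 31 to 15 of 47. CCT and HSP chaperones went from 20 to 9 of 28, and nucleotide synthesis genes from 20 to 10 of 37. For mitochondrial import and chaperones 11 of 34 were lower, in place of 24. The proteasome count was also 13 without MYC on replicate 2, and 15 and 14 with library totals and upper-quartile factors. The members higher were 25 of 48 for mitosis, 13 of 49 for replication, 16 of 33 for lipid synthesis and 9 of 34 for glycolysis. The lists were chosen with earlier results of these data known, and their counts are read only beside the shares over all tested genes.

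The levels at later times, as means on a scale set over all 15 libraries, show how the first responders stood afterwards. All 15 of the largest falls had a lower mean at 4 h than at 2 h. Polr1b, not among them, stood at 137, 56.5 and 7.36 CPM at 0, 2 and 4 h. Of the 15 largest rises, 10 had a lower mean at 4 h than at 2 h and 5 a higher one. Bnip3 had means of 29.0, 89.8, 35.4 and 67.6 CPM at 0, 2, 4 and 8 h, whereas Ccng2 had 37.5, 124, 167 and 204.5 CPM. Aldoa and Gpi1 were at 2520 and 1364 CPM at 2 h and at 1566 and 792 CPM at 4 h, against 1613 and 888.5 CPM at 0 h. At 24 h, MYC off replicate 3 stood apart, with a Pearson r of 0.979 and 0.978 against the other 24 h libraries, which had 0.998 between them (log2 CPM over 12201 genes). At that time 14 of the 15 falls were below and 1 above their 0 h mean, and all 15 rises were above it, with or without that library. Of the falls 3 were above their 2 h mean either way, and of the rises 9, or 10 without that library, a choice made after seeing the data. These later values are given as levels and were not tested.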

How the data were processed

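PolyA RNA of T-ALL cells was sequenced in 15 libraries, of which 6 (0 h and 2 h) were compared. The authors deposited 1 table per library with raw counts per gene and TPM for 53380 features, including the transgene. Listed in the submitters' processing notes are the tools cutadapt 1.16, STAR 2.5.4b and featureCounts and the build mm10, and no source read here names a strand setting. The deposited FPKM was not used. Of the mouse IDs, 53274 matched GENCODE M21, which gave symbols and positions, and 105 did not.

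The main test was the quasi-likelihood test of edgeR (version 4.0.16, R 4.3.3) on these counts (filterByExpr, TMM, glmQLFit, glmQLFTest; Benjamini-Hochberg adjusted p under 0.01, no replicate block), in a fit of the 6 libraries alone. Standard errors are the fold change over the root of F. The procedure was tested on simulated counts. Replicates differed by more than sampling noise (chi-square per degree of freedom 2.81 to 5.99), and intervals from counting alone would be too narrow. The 60 gene lists (1843 symbols, 1635 tested) and the choice of libraries were made with earlier results of these data known. Lists carry no test of their own. Named genes are the MYC network, the 15 largest rises and falls (protein-coding, at least 10 CPM in the higher group, groups not overlapping), 5 of other types, the 10 largest in CPM, and up to 4 members per list and direction, or any member where a count is 5 or fewer. Other members were named after their values were seen. Alternatives were other scalings and filters, DESeq2 1.42.0, fits with later libraries, a threshold of 0.05, a replicate block and each library left out.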

Additional observations from a re-analysis of the deposited data

How the results depend on the processing

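Over all 17 alternatives, counts of called genes stayed within 1.5 times their value with 4 exceptions. A fit over all 15 libraries gave 956 higher and 1244 lower genes in place of 2433 and 2794, a minimum of 10 counts in every library gave 75 rises of at least 2-fold in place of 124, and DESeq2 gave 78. Leaving out 1 library at a time gave 1981 to 2247 higher, 2402 to 2710 lower, 100 to 128 at least 2-fold higher and 152 to 163 at least 2-fold lower genes, and a transgene log2 fold change of -6.41 to -6.30. Library totals and upper-quartile factors raised the share of higher calls from 46.5% to 55.1% and 55.7%. Of 382 named genes that were called, 262 were called in every alternative and none of the 382 changed direction. Uncalled Eef1a1 ranged from -0.0388 (without MYC on 0 h replicate 1) to 0.034, and uncalled Trrap from -0.0877 to 0.0158 (without the same library), with 1 library left out, and Trrap was at 0.0084 and 0.0117 under library totals and upper-quartile scaling.

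Whether the replicate numbers pair the libraries was not settled: same-numbered deviations correlated weakly, at 0.041, 0.031 and -0.007. The libraries numbered 1 and 2 each correlated best with their own number, and those numbered 3 did not. Deviations from a mean of 3 libraries cannot show that pairing is absent. A replicate block gave 2465 higher, 2888 lower, 117 at least 2-fold higher and 159 at least 2-fold lower genes. Relative measures cannot show a change in total RNA per cell, and transcripts under about 0.111 CPM were not detectable at this depth, a limit that covers counting error only.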
